A study of Mus musculus with 6 samples.

Results

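Immunoglobulin transcripts were examined in thymocytes of wild-type and Ets1-/- mice, as measured by 36 of the 41345 probe sets of a single-channel Affymetrix array. The members were all probe sets whose annotated symbols include a gene segment of the immunoglobulin heavy, kappa or lambda locus. The loci were singled out because they differed between the 2 genotypes on these same arrays, so the set was in effect selected on the Ets1-/- against wild-type difference. That difference is given below as a description and supports nothing by itself. By their symbols, 16 probe sets belonged to the heavy chain, 18 to the kappa light chain and 1 to the lambda light chain, and 1 carried symbols of both the heavy and the kappa locus.

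The samples were 3 arrays of wild-type and 3 of Ets1-/- double-positive (CD4+ CD8+) thymocytes from C57BL/6 mice aged 5 to 6 weeks. The product of Ets1 is an ETS-domain transcription factor active in lymphocytes, and the labels give the mutation as Ets1-/- without naming a promoter, a Cre or the deleted part. Cells of both genotypes were crosslinked with formaldehyde, then enriched with magnetic beads against CD8 and CD4 in turn, before RNA was isolated. Litter-mate cohorts served as replicates, and how many animals contributed to an array is not stated in the labels.

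An immunoglobulin is built from paired heavy and light chains. In developing B cells each chain gene is assembled by joining a variable (V) segment to a J segment, with a D segment added in the heavy chain, and the joined exon is spliced to a constant region such as mu (Ighm, for IgM) or gamma 3 (Ighg3, for IgG3). B cells display the product as their antigen receptor and plasma cells secrete it in large amounts. T cells of the thymus assemble T-cell receptor genes with the same recombinase, while the thymus as an organ also holds some B cells. In RNA of a whole cell preparation, fewer cells of a type and less RNA per cell cannot be told apart.

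The 36 probe sets named 24 genes, and 23 of these had an entry, found by gene ID, among the RefSeq genes of assembly GRCm38.p6; Igh-VS107, a heavy-chain variable gene, was not matched. That table lists 259 V, D, J and C segments of the 3 loci besides pseudogenes, so only a small part of each locus was named. The kappa constant region Igkc, the lambda constant regions Iglc1 and Iglc2, and the heavy constant regions Ighd, Igha, Ighe and Ighg1 were named by no member and were not analysed here. Of the members, 31 carried 1 symbol and 5 carried several. V segments of a family are close copies of one another, and probe sequences were not used here, so a symbol marks the annotated target and not necessarily the only segment detected.

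Some facts of the whole array bear on these values. The Ets1 probe set read 9.11, 9.32 and 9.17 in wild type and 9.27, 9.22 and 8.79 in Ets1-/-, so the groups overlapped. The position of its probes with respect to the deleted part is unknown here, so it does not check the labels, and every direction below refers to arrays labelled Ets1-/-. The median log2 signal of all probe sets was 3.66 on Ets1-/- replicate 1 and 4.19 to 4.33 on the other 5 arrays. Values well below 0 occur at the low end of the scale, so a floor of 2 on the log2 scale was applied, which touched 7.28% of all values. Among the members, 12 of 216 values lay below 0. All 12 were on wild-type arrays and they belonged to 7 probe sets.

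Most members were low in wild type and high in Ets1-/-. The median floored log2 signal over the 36 probe sets was 2.64, 2.97 and 2.63 on wild-type replicates 1 to 3 and 7.10, 7.86 and 9.80 on Ets1-/- replicates 1 to 3. The group mean was higher in Ets1-/- for 35 of the 36 and lower for 1. The median difference, Ets1-/- minus wild type, was 4.27 on the log2 scale, where the median over all probe sets was -0.21. In 28 members all 3 Ets1-/- arrays lay above all 3 wild-type arrays, an arrangement seen in 4.95% of all probe sets. In 1 member they all lay below, as in 14.4% of all probe sets. Limma, fitted over the 40572 probe sets with any value above the floor and adjusted by Benjamini-Hochberg at 0.05, called 22 members higher, where it called 0.949% of all tested probe sets, and 0 lower, where it called 0.35%. Because the loci were picked on this contrast, nothing further is read from these counts. Omitting wild-type replicate 1, 2 or 3 left 16, 17 or 17 members called, and omitting Ets1-/- replicate 1, 2 or 3 left 17, 18 or 20. Over all probe sets the same fits called 205 to 347 higher, against 385 with all arrays. In all 6 of these fits 14 of the 22 kept their call. The other 8 were Ighm 17284360 and the probe set naming Ighg3, Ighv1-47 and Ighm, Igh-VS107 17284314, Ighv1-53, Igkv1-133, Igkv4-70, Igkv5-43 17467489 and Igkv8-19. Each of the 6 arrays was needed by at least 1 of them.

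**Figure D1:**
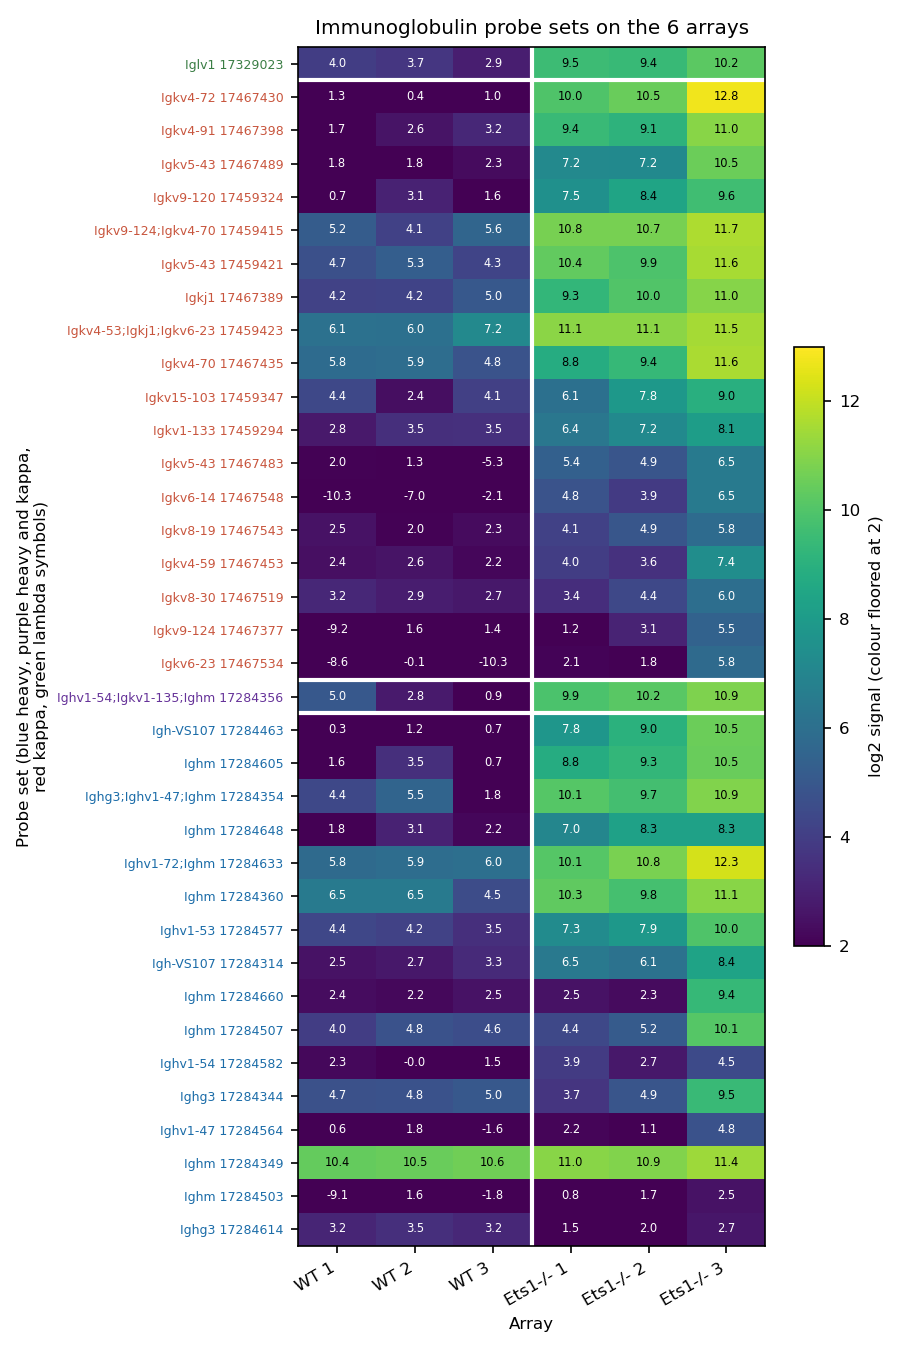
Deposited log2 signal of the 36 immunoglobulin probe sets (rows, with annotated symbols and probe set number) on the 6 arrays (columns); the colour scale starts at the floor of 2 and the printed values are not floored. The 3 Ets1-/- columns are brighter than the wild-type columns in most rows, and the column of Ets1-/- replicate 3 is the brightest.

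Summed on the linear scale, the loci differed by genotype in every array. The 18 kappa probe sets summed to 287, 275 and 355 linear units in wild type and to 8630, 9551 and 26886 in Ets1-/-. The 16 heavy-chain probe sets summed to 1644, 1780 and 1773 in wild type and to 6684, 7288 and 18924 in Ets1-/-. Most of the wild-type heavy sum came from 1 member, Ighm 17284349, at 1370, 1449 and 1563 units; the other 15 summed to 274, 331 and 210 in wild type and to 4584, 5345 and 16266 in Ets1-/-. In both loci the lowest Ets1-/- array lay above the highest wild-type array, and replicate 3 stood clear of the other 2 Ets1-/- arrays. The median difference was 4.20 for kappa and 3.26 for heavy, with ranges of 1.31 to 9.07 and -1.07 to 7.13. A test between the loci was not run, since the same contrast chose both.

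Among the kappa light chain, the J segment Igkj1, to which V segments are joined, read 4.19, 4.23 and 5.04 in wild type and 9.30, 10.03 and 10.99 in Ets1-/- (probe set 17467389). The groups were far apart, with a difference of 5.62 ± 0.46 (SE, n = 3 each). A second probe set, 17459423, names Igkj1 together with the V segments Igkv4-53 and Igkv6-23. It read 6.11, 6.05 and 7.16 in wild type and 11.10, 11.09 and 11.51 in Ets1-/-, a difference of 4.79 ± 0.35. It was one of the few members whose Ets1-/- arrays lay close together, with replicate 3 above the mean of the others by 0.42.

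The 15 kappa V probe sets with 1 symbol ranged widely. Igkv4-72 had the largest difference of any member. It read 1.31, 0.38 and 1.02 in wild type, all under the floor, and 9.97, 10.49 and 12.76 in Ets1-/-. Its signal was 538-fold higher when counted from the floor of 2, a size that depends on that floor. The log2 difference was 9.07 from the floor of 2, 7.07 from a floor of 4 and 6.92 with a pseudocount of 16. Igkv4-91 read 1.72, 2.57 and 3.22 against 9.44, 9.10 and 11.02, a difference of 7.26 ± 0.55 (SE). Igkv9-120 read 0.71, 3.07 and 1.56 against 7.53, 8.42 and 9.65, a difference of 6.18 ± 0.56. In these 3 segments the lowest Ets1-/- array stood more than 4 log2 units above the highest wild-type array.

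Some kappa segments were above the floor of 2 on all 6 arrays, so that it did not change their values. For Igkv4-70 the values were 5.83, 5.93 and 4.83 in wild type and 8.82, 9.37 and 11.59 in Ets1-/-, a difference of 4.40 ± 0.71. It was called, but kept its call in only 1 of the 6 fits without 1 array. The call was also lost without a floor, with a floor of 4 and with the replicate block. Igkv1-133 read 2.75, 3.49 and 3.52 against 6.35, 7.21 and 8.13, and Igkv15-103 read 4.39, 2.43 and 4.07 against 6.07, 7.85 and 8.96. Both pairs of groups were separate, with differences of 3.98 ± 0.47 and 4.00 ± 0.80. Of these 2 only Igkv1-133 was among the limma calls, and without Ets1-/- replicate 2 it too missed the threshold.

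Segments of 1 family did not share 1 size of difference. In the Igkv4 family Igkv4-72 and Igkv4-91 differed by 9.07 and 7.26 but Igkv4-59 by 2.59, with 2.44, 2.56 and 2.19 in wild type and 4.02, 3.56 and 7.39 in Ets1-/-. In the Igkv9 family Igkv9-120 differed by 6.18 and Igkv9-124 by 1.52. Igkv8-19 and Igkv8-30 differed by 2.67 and 1.66, and Igkv6-14 and Igkv6-23 by 3.07 and 1.31. The 3 probe sets naming Igkv5-43 differed by 5.87, 6.20 and 3.59, so probe sets of 1 annotated gene also disagreed in size. Of these, 17459421 read 4.70, 5.29 and 4.27 in wild type and 10.37, 9.94 and 11.55 in Ets1-/-, and 17467489 read 1.85, 1.80 and 2.32 against 7.16, 7.23 and 10.54. In the second, replicate 3 stood well above the other Ets1-/- arrays. The probe set naming Igkv9-124 together with Igkv4-70 read 5.19, 4.13 and 5.60 against 10.76, 10.74 and 11.65, a difference of 6.07 ± 0.44, larger than that of either segment named alone. These comparisons set differences side by side; signal levels of different probe sets were not ranked.

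The floor weighed most on 2 Igkv6 segments. Igkv6-14 read -10.28, -7.04 and -2.13 in wild type and 4.82, 3.87 and 6.51 in Ets1-/-; its difference was 11.55 on the deposited scale, 3.07 from the floor and 1.71 with a pseudocount of 16. Igkv6-23 read -8.58, -0.10 and -10.34 in wild type and 2.11, 1.80 and 5.82 in Ets1-/-, giving 9.58, 1.31 and 0.91 in the same order. In Ets1-/- replicates 1 and 2 the signal of Igkv6-23 was at or next to the floor. The sizes on the deposited scale are therefore set by how far under the floor the wild-type values fell.

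The places of the kappa V segments were read from RefSeq, with no test of position. Counted outward from the J segments over the 162 kappa V genes and pseudogenes in RefSeq, Igkv6-14 was number 15, Igkv8-19 number 20, Igkv6-23 number 24, Igkv8-30 number 32, Igkv5-43 number 46, Igkv4-72 number 83, Igkv4-91 number 107, Igkv9-120 number 143 and Igkv1-133 number 157. Of these, the 4 nearest the J segments had floored differences of 3.07, 2.67, 1.31 and 1.66, each under the kappa median of 4.20. That order rests on the floor. Without it Igkv6-14 and Igkv6-23 differed by 11.55 and 9.58, above the unfloored kappa median of 5.74, while Igkv8-19 and Igkv8-30 were unchanged. Farther out, Igkv4-59, Igkv4-70 and Igkv15-103, at numbers 68, 80 and 124, had floored differences of 2.59, 4.40 and 4.00. Igkv9-120 and Igkv9-124, at 143 and 147, are near neighbours, yet differed by 6.18 and 1.52. The 4 heavy-chain V genes in RefSeq, Ighv1-47, Ighv1-53, Ighv1-54 and Ighv1-72, were numbers 127, 136, 138 and 165 of 183, all in the part of the locus away from the J segments.

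**Figure D2:**
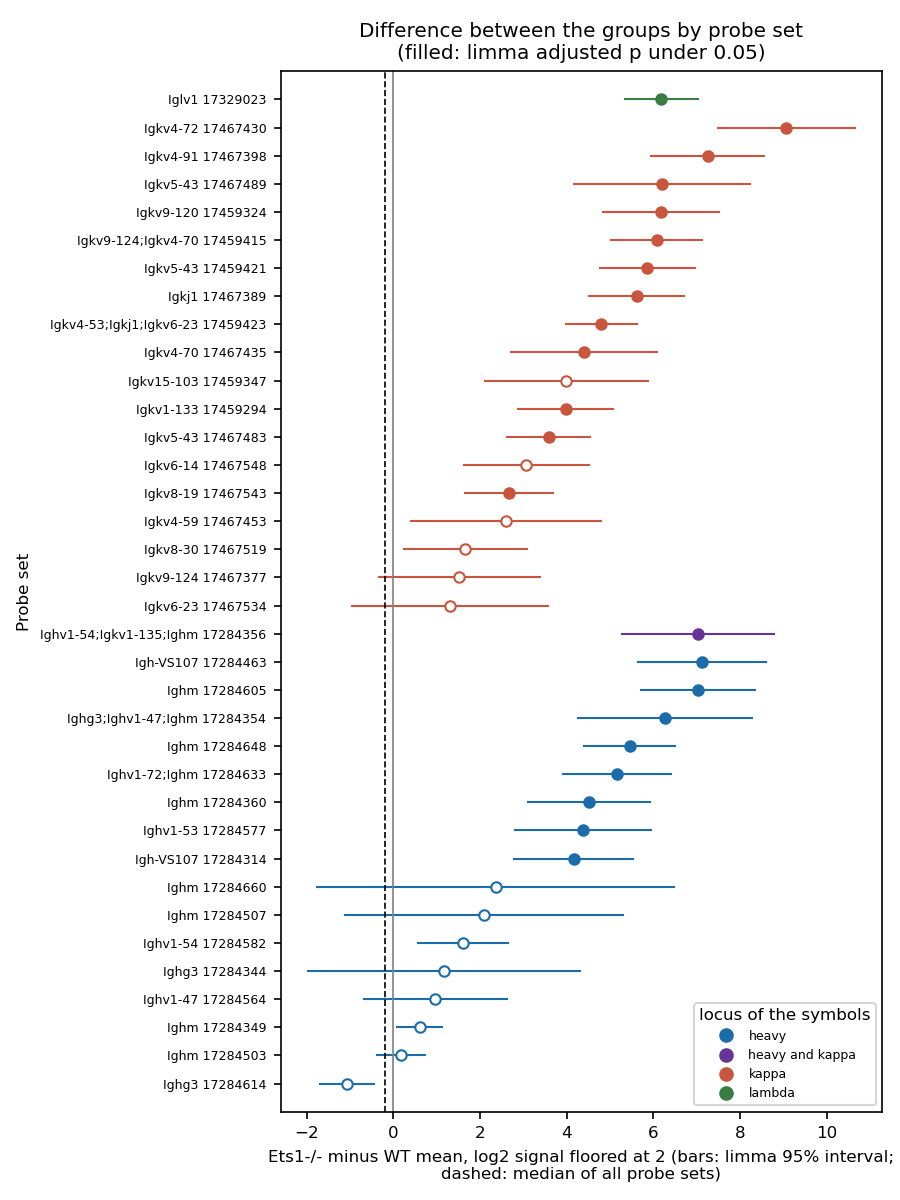
Ets1-/- minus wild-type mean of the floored log2 signal for each immunoglobulin probe set, with limma 95% intervals; filled points passed the adjusted threshold. Differences run from -1.07 (Ighg3 17284614) to 9.07 (Igkv4-72), and the dashed line is the all-probe-set median of -0.21.

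The lambda light chain was represented by Iglv1 alone, one of 3 lambda V segments in RefSeq. It read 3.99, 3.74 and 2.93 in wild type and 9.54, 9.43 and 10.24 in Ets1-/-. The groups were widely separate and the 3 Ets1-/- arrays close together, with a difference of 6.19 ± 0.36 (SE, n = 3 each).

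Heavy-chain V segments were represented by 5 probe sets with 1 symbol. Igh-VS107 had 2 of them. Probe set 17284463 read 0.34, 1.19 and 0.73 in wild type, all under the floor, and 7.80, 9.04 and 10.54 in Ets1-/-. This was 140-fold higher when counted from the floor of 2. The log2 difference was 7.13 from the floor of 2, 5.13 from a floor of 4 and 5.03 with a pseudocount of 16. Probe set 17284314 read 2.53, 2.71 and 3.29 against 6.47, 6.15 and 8.39, a difference of 4.16 ± 0.59. The direction was shared, but with the floor of 2 the sizes of the 2 differed by nearly 3 log2 units. Ighv1-53 read 4.35, 4.18 and 3.47 against 7.29, 7.88 and 9.95, a difference of 4.37 ± 0.67. Its groups were separate on values that were all above the floor.

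The other 2 heavy-chain V segments had lower signals, none above 5 on any array. Ighv1-54 read 2.25, -0.01 and 1.46 in wild type and 3.91, 2.69 and 4.48 in Ets1-/-, a difference of 1.61 ± 0.44. Ighv1-47 read 0.62, 1.77 and -1.62 against 2.16, 1.14 and 4.75, and its floored groups overlapped. Probe sets that name these segments together with a constant region gave larger differences. The one naming Ighv1-47, Ighg3 and Ighm read 4.39, 5.55 and 1.76 against 10.09, 9.72 and 10.92, and the one naming Ighv1-54, Ighm and the kappa segment Igkv1-135 read 5.04, 2.78 and 0.93 against 9.89, 10.17 and 10.88. Their differences were 6.26 ± 0.85 and 7.04 ± 0.74. A probe set naming Ighv1-72 and Ighm read 5.79, 5.92 and 6.01 against 10.11, 10.80 and 12.31, with 5.17 ± 0.53. Which of its symbols a probe set of this kind detected was not tested.

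The 7 probe sets naming the mu constant region Ighm alone fell into distinct patterns. Probe set 17284349 was high in both genotypes, at 10.42, 10.50 and 10.61 in wild type and 11.04, 10.92 and 11.38 in Ets1-/-. Its groups did not overlap, but the difference was only 0.60 ± 0.22 (SE) and was not called. It was the sole member above a log2 signal of 8 on any wild-type array. Another 3 Ighm probe sets were much lower in wild type. Probe set 17284605 read 1.57, 3.48 and 0.74 against 8.83, 9.27 and 10.50, a difference of 7.04 ± 0.56. Probe set 17284648 read 1.82, 3.06 and 2.21 against 7.03, 8.30 and 8.31, and 17284360 read 6.50, 6.53 and 4.55 against 10.31, 9.76 and 11.07. Their differences were 5.46 ± 0.44 and 4.52 ± 0.60. The groups were separate in all 3.

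The remaining Ighm probe sets were high on 1 array or on none. Probe set 17284507 read 4.01, 4.76 and 4.60 in wild type and 4.38, 5.18 and 10.09 in Ets1-/-. Probe set 17284660 read 2.38, 2.22 and 2.54 in wild type and 2.55, 2.31 and 9.37 in Ets1-/-. In both, Ets1-/- replicates 1 and 2 were at about the wild-type level and replicate 3 stood alone. Probe set 17284503 was at the floor on 5 arrays and at 2.52 on Ets1-/- replicate 3.

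Ighg3, the constant region of IgG3, had 2 probe sets of its own. Probe set 17284344 read 4.72, 4.78 and 5.04 in wild type and 3.71, 4.89 and 9.46 in Ets1-/-, again with replicate 3 alone high. Probe set 17284614 was the single member with a lower mean in Ets1-/-. It read 3.15, 3.50 and 3.24 against 1.49, 1.97 and 2.67, a difference of -1.07 ± 0.26, and was not called. With the floor raised to 4 it had no measured value in either group.

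**Figure D3:**
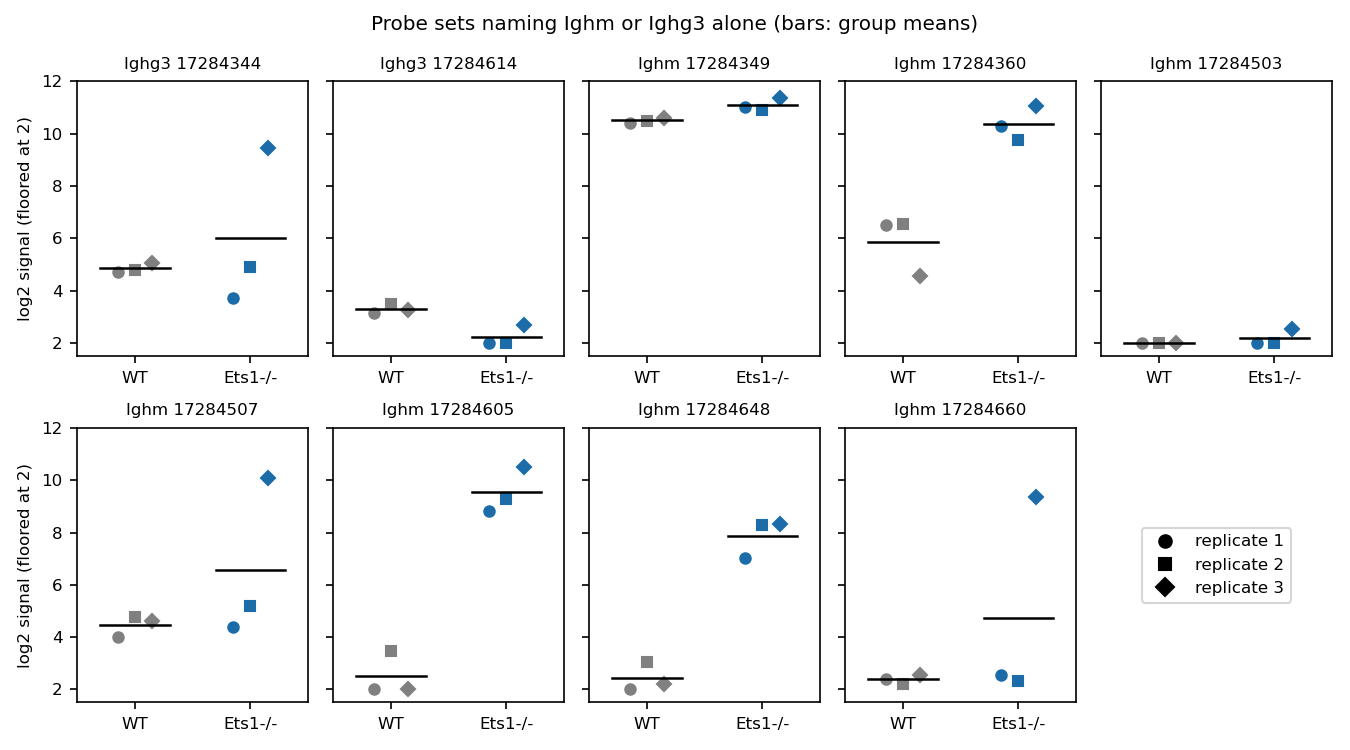
Floored log2 signal of the 9 probe sets naming only Ighm or Ighg3, by genotype, with replicate numbers as symbols and bars for group means. Ighm 17284349 is above 10 on all 6 arrays, whereas Ighg3 17284344, Ighm 17284507 and Ighm 17284660 are above 9 on Ets1-/- replicate 3 alone.

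The Ets1-/- arrays also differed among themselves. The same 3 arrays entered the contrast that chose the loci, so the counts here are descriptions too. Replicate 3 was the highest Ets1-/- array in all 36 members, as it was in 39.2% of all probe sets. It exceeded both other Ets1-/- arrays by over 2-fold in 22 of the 36, against 1.98% of all probe sets. With arrays centred on their medians these counts were 34 and 23. The median excess of replicate 3 over the mean of replicates 1 and 2 was 1.88 for kappa and 1.65 for heavy, 0.75 for Iglv1 and 0.20 over all probe sets. These are values of 1 array, with no replicate and no test.

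In 6 members replicate 3 was over 4-fold above both other Ets1-/- arrays while their mean lay within 2-fold of the wild-type mean, a rule set after the values were seen. Of all probe sets 0.169% met it. The 6 were Ighg3 17284344, Ighm 17284507, Ighm 17284660, Ighv1-47, Igkv6-23 and Igkv9-124, the last reading -9.21, 1.63 and 1.36 in wild type and 1.17, 3.11 and 5.46 in Ets1-/-. None of the 6 was called between the genotypes. Without replicate 3, 20 members were called, 19 of them among the 22 called with all arrays, and the median difference was 2.34 for heavy and 3.55 for kappa. Across the 36 members the Spearman correlation of floored signals was 0.97 between Ets1-/- replicates 1 and 2, and 0.91 and 0.92 of each with replicate 3. These points share probe affinities and, for some, targets, and the values are a description only.

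**Figure D4:**
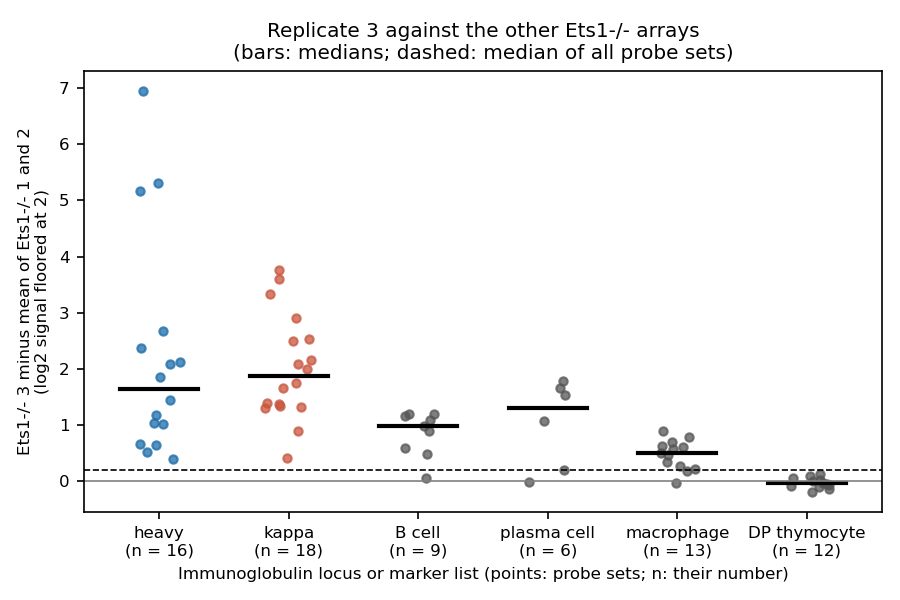
Floored log2 signal of Ets1-/- replicate 3 minus the mean of replicates 1 and 2 for heavy and kappa probe sets and for 4 lists of cell type markers (points, with bars for medians). The medians are 1.65 and 1.88 for the immunoglobulin loci, 0.98 for B-cell, 1.31 for plasma-cell, 0.51 for macrophage and -0.03 for double-positive thymocyte markers.

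Genes that accompany immunoglobulin expression were examined with the same fit. Of 75 measured companion genes, 16 were called higher and 0 lower, with a median difference of 0.97, where 0.949% of all tested probe sets were called higher and their median was -0.21. These lists, like the loci, were drawn up with earlier results of these arrays known. The counts called were 11 to 18 when single arrays were left out, and 26 after median centring. Over all probe sets the calls moved too, from 385 to between 205 and 347 without single arrays and to 594 after median centring.

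Of 16 genes of the B-cell receptor and its signalling, 4 were called higher and 0 lower, with a median difference of 1.79. Cd79a, which pairs with Cd79b to carry the signal of surface immunoglobulin, read 3.22, 2.90 and 1.68 in wild type and 6.47, 6.74 and 7.20 in Ets1-/-. It rose by 4.09 ± 0.37 (SE; limma adjusted p = 0.00390). Its partner Cd79b read 5.16, 5.82 and 5.81 against 7.0, 7.11 and 8.03; the groups were separate but the difference of 1.78 ± 0.35 was not called (limma adjusted p = 0.0753), though it was after median centring. Fcrla rose by 3.05 ± 0.22. The adaptors Bank1 and Pik3ap1 rose by 2.71 and 2.42, but Bank1 lost its call without Ets1-/- replicate 2 (limma adjusted p = 0.0567) and Pik3ap1 without wild-type replicate 1 (0.0522).

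Of 10 transcription factors of the B lineage, 2 were called higher, with a median difference of 1.32. Irf8, which dendritic cells and macrophages also use, rose by 2.51 ± 0.23 (limma adjusted p = 0.00405). Pou2af1, a coactivator that acts at the octamer of immunoglobulin promoters, read 3.61, 4.02 and 4.97 against 6.42, 7.04 and 8.07. Its rise of 2.98 ± 0.51 was at the threshold (limma adjusted p = 0.0463) and lost its call whichever array was left out (0.0578 to 0.150). Pax5, which fixes B-cell identity, read 3.16, 3.05 and 3.31 against 4.03, 4.04 and 5.14, separate groups that were not called (limma adjusted p = 0.200). Ebf1 and Spib had differences of 1.80 and 3.03 with limma adjusted p of 0.0520 and 0.0545. Both were called after median centring or quantile normalization and with a trended robust prior, while Pax5 was called in no alternative.

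Of 15 markers of mature B cells, 5 were called higher and 0 lower, with a median difference of 2.25. Ms4a1, which encodes CD20, read 0.20, -0.91 and 0.85 in wild type, all under the floor, and 5.52, 6.07 and 6.98 in Ets1-/- (limma adjusted p = 0.00368). With a floor of 4 it lost its call (limma adjusted p = 0.0627). Cd180 and Ly86, partners in a receptor complex of B cells and myeloid cells, rose by 3.35 and 3.26. The inhibitory Fc receptor gene Fcgr2b rose by 2.57; its call was lost when either wild-type replicate 1 or 2 was omitted (limma adjusted p up to 0.0585). For the class II peptide editor gene H2-DMb2 the rise of 5.02 lost its call in 5 of the 6 fits without 1 array (limma adjusted p up to 0.139) and kept it without wild-type replicate 2.

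Of 18 plasma-cell genes, 5 were called higher and 0 lower, with a median difference of 0.93. Jchain, the joining chain of secreted IgM and IgA polymers, read 4.12, 3.96 and 4.17 in wild type and 8.45, 9.12 and 10.58 in Ets1-/-, a rise of 5.30 ± 0.51 (SE; limma adjusted p = 0.00470) that was called in all 6 fits without 1 array. Slpi, a secreted protease inhibitor, read 2.26, 2.14 and 2.34 against 6.73, 7.67 and 9.40. With a floor of 4 Slpi lost its call (limma adjusted p = 0.0630). Jchain and Slpi, like the immunoglobulin probe sets, were highest on Ets1-/- replicate 3. This was not particular to them: 13 of the 18 genes had their highest Ets1-/- value on it, as did 39.2% of all probe sets. Mzb1, a chaperone of IgM assembly, rose by 3.95 ± 0.55 and lost its call without any 1 of the wild-type arrays, without Ets1-/- replicate 2 or without replicate 3 (limma adjusted p up to 0.0881). Irf4, which lost its call in 5 of the 6 such fits (up to 0.119; all but that without Ets1-/- replicate 1), and Ly6c2 rose by 2.13 and 4.62. Without a floor Ly6c2 lost its call (limma adjusted p = 0.320), and Irf4 lost its own without a floor, with a floor of 4 or with a pseudocount of 16 (up to 0.342).

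Prdm1 and Xbp1, regulators of secretory differentiation like Irf4, were not called. Prdm1, which encodes Blimp-1, read 4.56, 4.05 and 5.36 against 5.41, 5.79 and 5.59, and Xbp1, the factor of the secretory stress response, read 7.41, 7.54 and 7.11 against 8.07, 8.44 and 8.32. Their differences of 0.94 ± 0.35 and 0.92 ± 0.23 were not called (limma adjusted p = 0.356 and 0.149), although the groups did not overlap in either; Xbp1 was called with quantile normalization, a pseudocount of 16 or a trended robust prior. Sdc1 and Tnfrsf17, surface proteins of plasma cells, had differences of 1.06 and 0.48 and were not called.

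Genes of early B-cell development and of class switching gave no calls. Over all tested probe sets 0.949% were called higher and 0.35% lower, so 0 calls in lists this short says little. Of 10 in the first list 0 were called, with a median of 0.19. The smallest limma adjusted p among them was 0.101, for Il7r. This gene read 5.25, 4.64 and 4.11 in wild type and 7.33, 5.98 and 6.69 in Ets1-/-. Its groups were separate, and among the alternatives it was called only with the trended robust prior. Igll1 and Vpreb1, which form the surrogate light chain, differed by 0.62 ± 0.22 and -1.48 ± 1.31 (limma adjusted p = 0.326 and 0.671). Igll1 was under the floor on all 3 wild-type arrays and read 2.46, 2.92 and 2.49 in Ets1-/-. Vpreb1 read 7.54, 4.20 and 7.49 in wild type and 2.89, 7.40 and 4.50 in Ets1-/-, so its groups overlapped throughout. Of 6 measured genes of class switching and hypermutation 0 were called, with a median of -0.39.

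**Figure D5:**
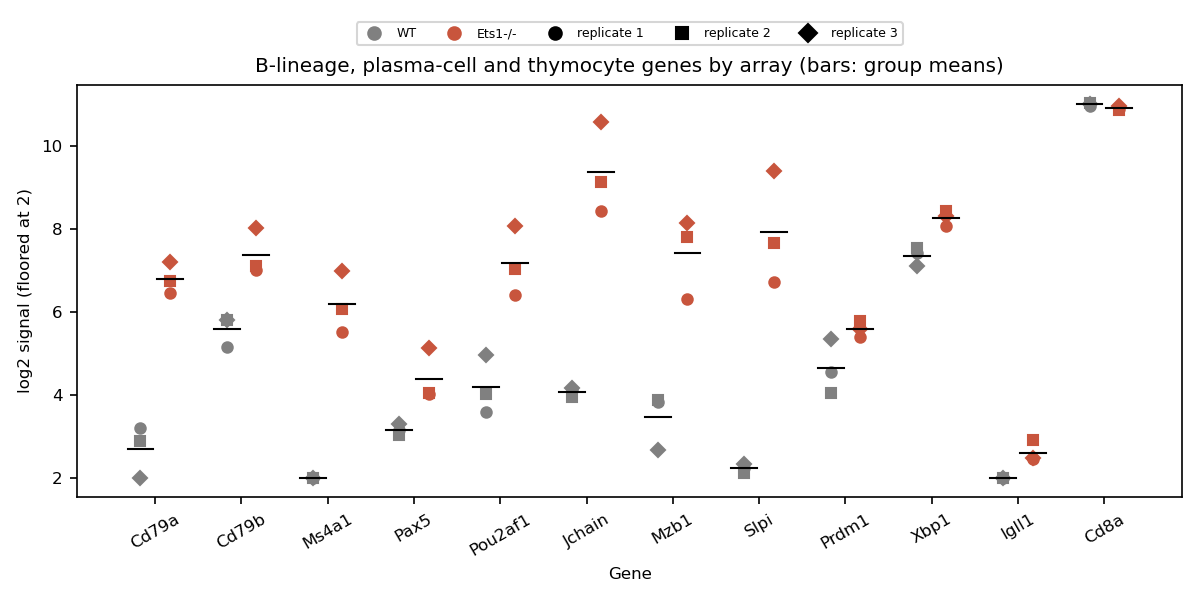
Floored log2 signal of 12 genes on each array, wild type in grey and Ets1-/- in red, with replicate numbers as symbols and bars for group means. Jchain lies at 3.96 to 4.17 in wild type and 8.45 to 10.58 in Ets1-/-, while Cd8a lies at 10.96 to 11.02 and 10.87 to 10.97.

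Markers of several cell types were set beside these values. For the counts that follow, 0.949% of all tested probe sets were called higher and 0.35% lower. Cd4 and Cd8a, which define double-positive cells, lay at 10.87 to 11.00 and 10.96 to 11.02 in wild type and at 11.01 to 11.15 and 10.87 to 10.97 in Ets1-/-. Of 12 double-positive markers 0 were called, which says little beside the shares called over all probe sets. All 3 Ets1-/- arrays lay below all 3 wild-type arrays in 4 of the 12, as in 14.4% of all probe sets. They lay above in 3, as in 4.95%. Dntt, 1 of the 4, was called lower with the trended robust prior (limma adjusted p = 0.00242). The summed linear signal of the 12 was 22185 to 23352 in wild type and 22105 to 22966 in Ets1-/-. Of 9 B-cell markers 4 were called higher, and the sum was 92.4 to 114 in wild type and 425 to 829 in Ets1-/-, with Ms4a1 and Blk under the floor on all wild-type arrays. Of 6 plasma-cell markers 2 were called higher, with sums of 84.0 to 114 and 520 to 1958. Of 13 macrophage markers 11 were called higher, with sums of 757 to 929 and 3979 to 5434, and Csf1r, the receptor for macrophage growth factor, read 4.65, 4.61 and 4.38 against 7.45, 7.80 and 8.33. Of 9 genes listed for dendritic cells Itgax alone was called, and 4 had higher and 5 lower means in Ets1-/-. The list includes the chemokine gene Xcl1, which rose by 1.42 and was called with a pseudocount of 16 (limma adjusted p = 0.0400). The part of B cells, plasma cells or other cells in the immunoglobulin values was not tested.

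The same markers were compared among the Ets1-/- arrays. Replicate 3 was the highest of the 3 in 8 of 9 B-cell, 4 of 6 plasma-cell, 12 of 13 macrophage and 3 of 12 double-positive markers. Over all probe sets it was so in 39.2%, and counts in lists this short are a description only. Replicate 3 was over 2-fold above both other arrays in 2 B-cell, 3 plasma-cell, 0 macrophage and 0 double-positive markers, and in 1.98% of all probe sets. The share of these markers in the excess of replicate 3 was not tested.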

How the data were processed

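The members and lists were chosen with earlier results of these data known. The authors deposited log2 signals for 41345 probe sets on 6 arrays; affy is the only tool in the submitters' processing notes, and no source used here gives the background correction, normalization or build. That the scale is log2 was inferred from the range of values. The array number limits the precision.

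Symbols came from the platform annotation (23521 probe sets named 1 gene, 1814 several and 16010 were unnamed here). Values under 2 were set to 2, and probe sets at this floor on all 6 arrays were not tested, which left 40572; all 36 members were tested. Differences were fitted with limma 3.58.1 in R 4.3.3 (lmFit, eBayes, two-sided, no covariate) and adjusted by Benjamini-Hochberg over all probe sets tested. A companion gene was represented by its brightest probe set naming it alone. The fit was tested on simulated data. Since separate animals are not named per array, p-values cover the spread between arrays, which may be technical. Tables and plots used Python 3.11.15, pandas 2.3.3 and matplotlib 3.10.9.

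Individually described were all constant and J probe sets, the V probe sets with the highest Ets1-/- means and with the largest differences above the floor, up to 4 companions per list by p, and fixed genes such as Cd79a, Jchain and Prdm1. Alternatives were other floors, no floor, a pseudocount of 16, median centring, quantile normalization, filters, a trended robust prior, a replicate block and the omission of each array.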

Additional observations from a re-analysis of the deposited data

How the results depend on the processing

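The number of immunoglobulin probe sets called higher stayed within 1.5 times its value of 22 in all alternatives, between 16 (no floor, or a floor of 4) and 25 (trended robust prior), and 0 were called lower in each. Of the 22 calls, 13 were kept in all 16 alternative fits. The heavy median moved from 3.26 to 4.27 without a floor, 2.20 with a pseudocount of 16 and 2.23 over 1-symbol probe sets. The kappa median moved from 4.20 to 5.74 without a floor, and Iglv1 from 6.19 to 5.74 with a floor of 4 and 4.96 with a pseudocount of 16. Without single arrays the medians were 2.34 to 4.08 for heavy, 3.55 to 4.82 for kappa and 5.88 to 6.40 for lambda. Companion genes called higher numbered 26 after median centring or quantile normalization and 27 with the trended robust prior, against 16.

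Over all probe sets, 385 were called higher: 594 after median centring, 595 after quantile normalization, 636 with the trended robust prior, and 205 to 347 without single arrays. Called lower were 142: 77 without a floor, 248 with a floor of 4, 304 with a pseudocount of 16, 275 after quantile normalization, 231 among probe sets above the median, 422 with the trended robust prior, and 48 to 99 without single arrays.

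Whether a replicate number marks a shared litter is not stated in the labels, and the arrays gave no sign of it: deviations of same-numbered arrays from their group means correlated at -0.03, -0.01 and -0.08. With the replicate block, 17 immunoglobulin probe sets and 15 companion genes were called higher, and over all probe sets 232 higher and 47 lower. Among those losing their call with it were Ighm 17284360, Ighv1-53, Igkv4-70, Igkv8-19, Mzb1, Irf4 and the probe set naming Ighg3, Ighv1-47 and Ighm. A tally of 761 comparisons under an alternative covered the members and fixed genes such as Cd79a and Jchain. Of these, 688 kept their side of the threshold, 57 lost a call, 16 gained one and 0 reversed. Other companion genes were outside this tally, and the calls of several moved. Irf4, Pou2af1 and H2-DMb2 lost theirs in several alternatives, and H2-Ob, Spib, Plcg2 and Ebf1 gained one in several. Signals near the floor carry no order, so the sizes of differences of members under the floor in wild type depend on the floor chosen.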
